A study of Homo sapiens with 6 samples.

Results

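The human mitochondrial genome is a small circular DNA molecule that carries 37 genes, of which 13 encode mRNAs for subunits of the respiratory chain and ATP synthase, 2 encode the rRNAs of the mitochondrial ribosome and 22 encode tRNAs. These genes were chosen by name and place, as all rows of the deposited count table whose symbol starts with MT- and whose chromosome is the mitochondrial one. All 37 were present among 29889 genes with at least 1 count. The libraries came from A549 cells, a human lung adenocarcinoma line, that had been transfected with lipid reagent and either a CELF6 plasmid (CELF6-OE) or the empty plasmid (Control), and that were harvested 48 h later. There were 3 biological replicates in each group and 6 libraries in all. Every library was a stranded, poly(A)-selected RNA-seq library, and tRNAs were not the target of such a protocol. The groups share the cell line and the transfection, so that they differ by the CELF6 insert alone as far as the labels tell. CELF6 is an RNA-binding protein of the CELF family, known as a regulator of pre-mRNA splicing. The mitochondrial genes as a set were selected on the counts of CELF6-OE against Control, since the set was proposed for description with that difference already known, so their own difference between the groups is given below as a description, with no p-value.

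Both strands of the mitochondrial genome are transcribed into long polycistronic RNAs, from which the tRNAs are cut out and thereby release the mRNAs and rRNAs between them. The G-rich heavy strand is the template for most genes. The light strand is the template for a single mRNA, MT-ND6, and for a minority of the tRNAs, and most of the rest of its transcript is antisense to other genes and is degraded. Most mitochondrial mRNAs carry short poly(A) tails added within the organelle, whereas MT-ND6 mRNA is known to lack such a tail. In what follows, genes are named by the strand as these textbook conventions group them: the heavy-strand group holds 12 mRNAs, 2 rRNAs and 14 tRNAs, and the light-strand group holds 1 mRNA and 8 tRNAs.

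The sequences below, from GRCh38, show places where neighbouring genes cannot be read independently of one another and the light-strand mRNA with its distinct base composition. In the first, at chrM:8507-8592 on the plus strand, the capitals mark the 46 bases that belong to both MT-ATP8 and MT-ATP6, which lie on 1 bicistronic mRNA. In the next, at chrM:9177-9237, the capital marks the single base shared by MT-ATP6 and MT-CO3. In the next, at chrM:10730-10796, capitals mark the 7 bases shared by MT-ND4L and MT-ND4, the other bicistronic mRNA. The last pair shows the border of MT-ND5 with MT-ND6 at chrM:14119-14178, on the plus strand with the MT-ND6 side in capitals, and the first 120 bases of MT-ND6 on its own strand, at chrM:14554-14673 on the minus strand with the start codon in capitals.
MT-ATP8/MT-ATP6: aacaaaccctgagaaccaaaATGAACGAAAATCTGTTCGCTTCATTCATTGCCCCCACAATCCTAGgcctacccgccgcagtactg
MT-ATP6/MT-CO3: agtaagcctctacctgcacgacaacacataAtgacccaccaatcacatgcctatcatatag
MT-ND4L/MT-ND4: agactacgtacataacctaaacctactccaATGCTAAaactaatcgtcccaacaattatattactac
MT-ND5/MT-ND6: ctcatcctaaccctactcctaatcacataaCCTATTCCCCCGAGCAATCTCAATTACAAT
MT-ND6 start: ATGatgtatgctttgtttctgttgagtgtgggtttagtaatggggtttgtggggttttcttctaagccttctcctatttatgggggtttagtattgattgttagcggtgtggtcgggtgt

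MT-ND6 ends at the base next to the last base of MT-ND5, on the opposite strand. Read 5′ to 3′ on its own strand, MT-ND6 held 35.6% G and 7.05% C, whereas the 12 heavy-strand mRNAs held 6.28% to 16.2% G and 29.5% to 36.0% C. The strand setting used when reads were counted is not given in the sources used here. Reads counted on MT-ND6 or on a light-strand tRNA therefore cannot be told apart from reads of the RNA on the opposite strand. Likewise, it is not stated how a read in a stretch shared by neighbouring genes was counted.

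The total count on genes was 33748328 to 35413404 in the CELF6-OE libraries and 36422617 to 37920700 in the Control libraries. CELF6, the transfected gene, had 18646, 20789 and 11571 counts in CELF6-OE replicates 1 to 3, and every Control library had 0, where a count of 0 allows up to 3 counts. No library was a duplicate of another. The epithelial keratins KRT8 and KRT18, expected of A549, stood at mean levels of 1864 and 1862 FPKM (fragments per kilobase of gene, scaled to the size of the library) in CELF6-OE, against 2530 and 2334 FPKM in Control, and KRT7 and KRT19 were at 1674 and 36.2 FPKM against 1736 and 41.3 FPKM. EPCAM, another epithelial marker, was low, at 1.03 and 1.34 FPKM. Of the leukocyte markers, PTPRC had at most 2 counts and LYZ at most 17 counts in any library, while CD14 had 225 to 310 counts. Among all genes, edgeR's quasi-likelihood test called 324 genes up-regulated and 1212 down-regulated at the study's threshold for a differentially expressed gene (DEG), a p under 0.01 with a fold change of at least 1.5.

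The share of mitochondrial RNA overlapped between the groups when taken over counts and did not when taken over FPKM. It made up 8.91%, 10.1% and 9.36% of the counts in CELF6-OE replicates 1 to 3 (mean 9.45% ± 0.595, SD, n = 3), against 8.69%, 8.75% and 9.19% in the Control libraries (mean 8.87% ± 0.272, SD, n = 3). CELF6-OE replicate 1 lay within the Control range, and the other two CELF6-OE libraries lay above it, so that the groups overlapped. Of the summed FPKM, it made up 18.5%, 21.0% and 19.4% in CELF6-OE, against 17.6%, 17.6% and 18.2% in Control, where every CELF6-OE library was above every Control library. The difference of the mean count shares was 0.579 percentage points, and 0.261 without CELF6-OE replicate 2. In these bulk libraries, a change in the number of cells that carry an RNA and a change in the RNA per cell cannot be told apart. Of the mitochondrial counts, the heavy-strand mRNAs made up 81.9% ± 2.20 in CELF6-OE and 81.5% ± 2.64 in Control, and the rRNAs 17.8% ± 2.28 and 18.4% ± 2.63 (SD, n = 3 each). MT-ND6 made up 0.209% ± 0.0811 and 0.101% ± 0.00966 of them, and the 22 tRNAs together 0.0686% and 0.0692%.

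**Figure D1:**
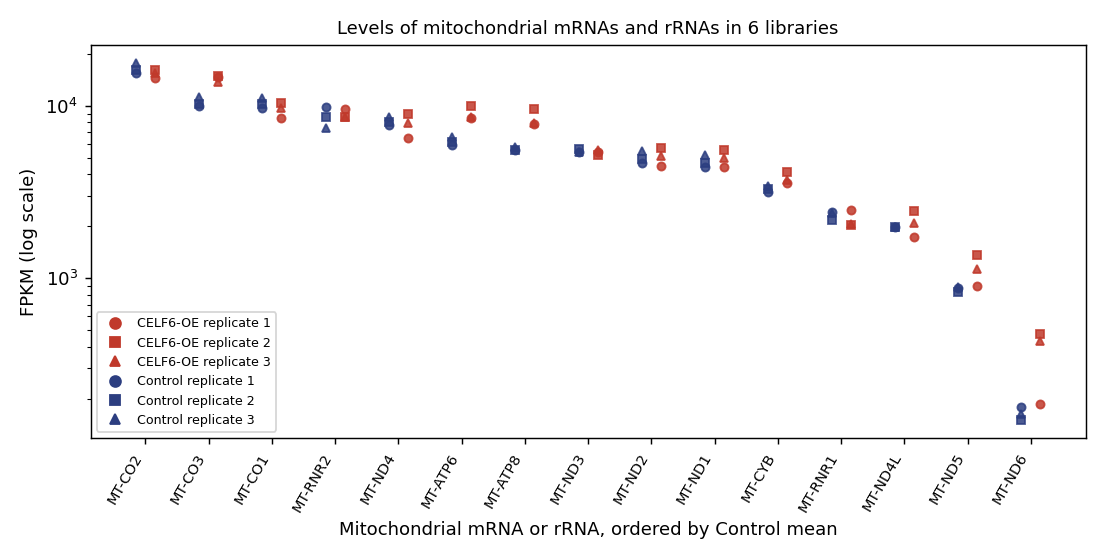
Level of the 13 mRNAs and 2 rRNAs in each of the 6 libraries, as FPKM on a log axis, with genes ordered by their Control mean; each point is 1 library, red for CELF6-OE and blue for Control. The levels run from MT-CO2 at the top to MT-ND6 at the bottom, and the red points of MT-CO3, MT-ATP6 and MT-ATP8 lie above all blue points of the same gene.

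FPKM is per length, which allows levels of different genes to be set side by side. It does not correct for poly(A) selection, and MT-ND6 mRNA is known to lack a tail, so its rank is uncertain. The level of MT-ATP8, at 207 bases little longer than a read, is uncertain too. The 15 mRNAs and rRNAs spanned a wide range in Control, from MT-CO2, a core subunit of complex IV, at 16460 ± 1231 FPKM down to MT-ND6, a core subunit of complex I, at 164 ± 14.1 FPKM (SD, n = 3). MT-CO2 stood apart from the next gene. MT-CO3, MT-CO1 and MT-RNR2, the 16S rRNA, then followed at 10460, 10300 and 8596 FPKM, and each of these overlapped its neighbour over the 3 libraries, as did MT-RNR2 and MT-ND4 at 8146 FPKM. MT-ATP6, at 6231 FPKM, stood apart from MT-ND4 above it and from MT-ATP8 below it. MT-ATP8, MT-ND3, MT-ND2 and MT-ND1 formed a second run of overlapping neighbours between 5599 and 4763 FPKM. From there MT-CYB, MT-RNR1 (the 12S rRNA), MT-ND4L, MT-ND5 and MT-ND6 each stood apart from the next. In all, 6 of the 14 neighbouring pairs overlapped in Control. In CELF6-OE 8 of 14 did, and MT-ATP6 and MT-ATP8 stood above MT-ND4 in the order of means, which in Control they did not. The 12S rRNA was lower per length than 10 of the 12 heavy-strand mRNAs, in libraries that were selected for poly(A).

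**Figure D2:**
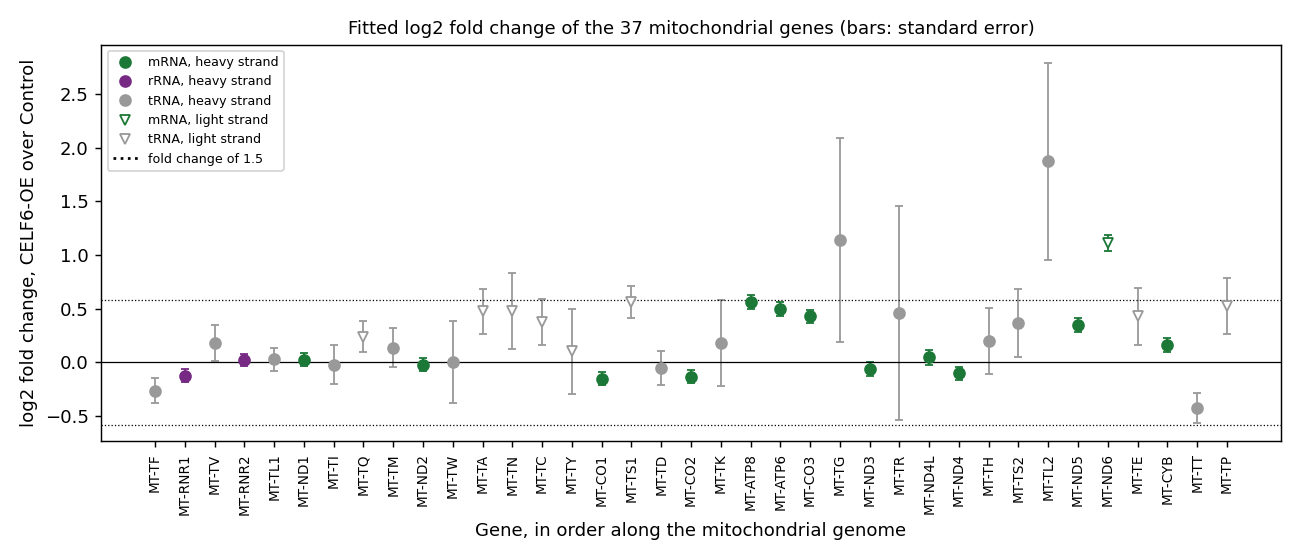
Fitted log2 fold change of CELF6-OE over Control with its standard error for the 37 genes in their order along the mitochondrial genome; filled circles are heavy-strand genes and open triangles light-strand genes, coloured by class, and dotted lines mark a fold change of 1.5. MT-ND6 is the 1 gene past the DEG threshold, MT-ATP8, MT-ATP6 and MT-CO3 stand next to each other below the upper dotted line, and the wide bars belong to tRNAs with few counts.

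Of the 37 genes, 1 passed the DEG threshold as higher in CELF6-OE, which was MT-ND6, and 0 passed it as lower. Over all genes tested the shares were 1.08% higher and 4.06% lower, and among genes kept by a filter on low counts (filterByExpr) 1.36% and 5.91%, and since the genes were proposed from this same contrast nothing is read from the comparison. At an unadjusted p under 0.05 and any fold, edgeR placed 10 of the 37 genes higher and 4 lower, where it placed 9.13% of all genes higher and 11.6% lower. Of the genes kept by the filter it placed 15.8% higher and 19.7% lower. At the same limit DESeq2 placed 6 of the 37 higher and 2 lower, where it placed 6.72% of all genes higher and 8.55% lower. Of the genes kept by the filter DESeq2 placed 12.5% higher and 15.4% lower. The fitted log2 fold change of the 37 genes had a median of 0.18, beside 0.02 over all genes tested, with 27 values above 0 and 10 below. On counts scaled to the size of the library (CPM), the 2 groups did not overlap in 10 genes that were higher and 2 that were lower in CELF6-OE, 25 overlapped, and the shares without overlap over all genes were 11.0% higher and 12.7% lower. Among the 15847 genes kept by the filter, 2672 were higher and 3313 lower without overlap. The filter on low counts kept 34 of the 37 and left out MT-TG, MT-TR and MT-TL2, which had mean counts of 2.67, 2.33 and 3.17 per library.

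MT-ND6 had the widest difference among the mRNAs, and it came from 2 of the 3 CELF6-OE libraries. Replicates 1 to 3 had 3555, 9247 and 7956 counts in CELF6-OE, against 3533, 3092 and 3389 in Control. Its FPKM levels were 187, 475 and 429 against 178, 149 and 164. CELF6-OE replicate 1 lay just above the highest Control library, while the other two stood far above, so the groups did not overlap but 1 treated library was close to Control. The mean was 364 ± 155 FPKM in CELF6-OE and 164 ± 14.1 in Control (SD, n = 3), and on CPM the coefficient of variation was 42.1% against 7.73%. The fitted log2 fold change was 1.11 with an SE of 0.08, or 0.25 in the fit restricted to genes kept by the filter, in which the spread of each gene enters. Without CELF6-OE replicate 1 the log2 fold change was 1.44, and without replicate 2 or replicate 3 it was 0.88 or 0.97. The library with the lowest MT-ND6 level was not the one with the lowest CELF6 level: CELF6 stood at 270, 295 and 172 FPKM over replicates 1 to 3.

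Set against the other mitochondrial mRNAs of the same library, MT-ND6 differed less clearly. Its FPKM level was 2.77%, 6.04% and 5.98% of the mean level of the 12 heavy-strand mRNAs in CELF6-OE and 2.85%, 2.31% and 2.35% in Control, so CELF6-OE replicate 1 fell within the Control range. Relative to its neighbour MT-ND5, the FPKM ratio was 0.207, 0.348 and 0.378 in CELF6-OE, against 0.203, 0.180 and 0.185 in Control, without overlap but with replicate 1 close to the highest Control library.

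**Figure D3:**
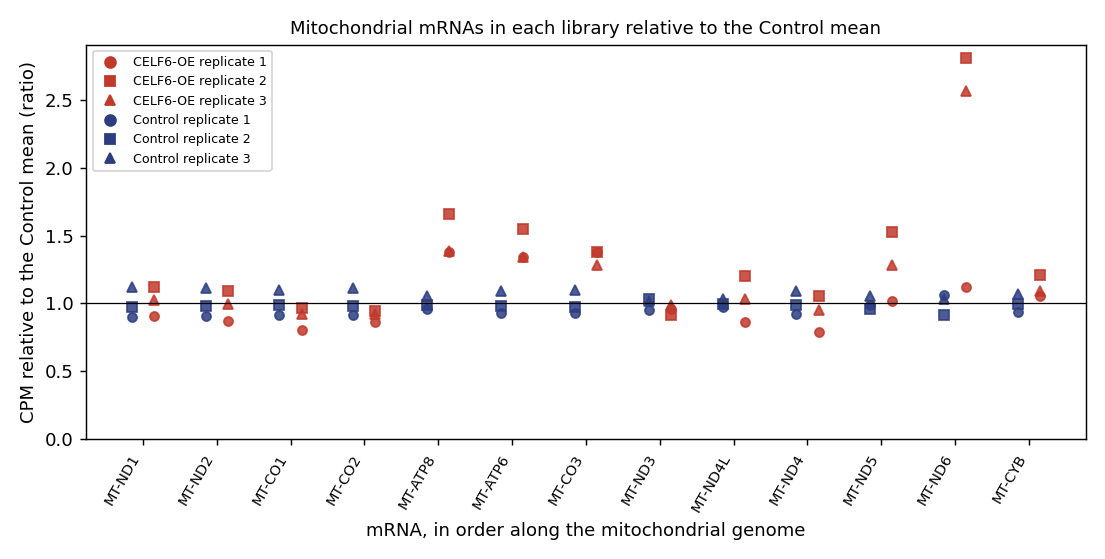
CPM of the 13 mRNAs in each library divided by the mean of the 3 Control libraries, in their order along the mitochondrial genome; red points are CELF6-OE libraries, blue points Control libraries and the shape gives the replicate. MT-ND6 stands at 1.12, 2.81 and 2.56 over the CELF6-OE replicates, and all CELF6-OE points of MT-ATP8, MT-ATP6 and MT-CO3 lie above the Control points, between MT-CO2 and MT-ND3, whose points are mixed.

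The 12 heavy-strand mRNAs had log2 fold changes with a median of 0.03, with values from -0.15 to 0.56. Beside 11.0% of all genes and 2672 of the 15847 kept by the filter, 3 of them were higher in CELF6-OE without overlap of the groups: MT-ATP8, MT-ATP6 and MT-CO3. These 3 genes follow each other without a tRNA between them, and their shared bases are shown above. MT-ATP8 and MT-ATP6 encode the mitochondrially made subunits of ATP synthase, and MT-CO3 a core subunit of complex IV. None of the 3 reached a fold change of 1.5, so none was called.

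MT-ATP8 stood at 7869, 9610.0 and 7960.2 FPKM in CELF6-OE, against 5506, 5559 and 5733 FPKM in Control, a log2 fold change of 0.56 (SE 0.07). MT-ATP6 stood at 8517, 10022 and 8558 FPKM in CELF6-OE, against 5944, 6123 and 6624 FPKM in Control, a log2 fold change of 0.50 (SE 0.06). MT-CO3 stood at 14666, 14985 and 13790.1 FPKM in CELF6-OE, against 9997, 10198 and 11186 FPKM in Control, a log2 fold change of 0.43 (SE 0.06). In the fit restricted to genes kept by the filter, the SEs were 0.08, 0.09 and 0.08 in this order. In all 3 genes every CELF6-OE library, including the one with a low MT-ND6 level, was above every Control library. The 3 genes were picked by this lack of overlap, which also fixes that of their sum. Their summed CPM was 19650, 20960 and 18880 in CELF6-OE, against 13410, 14050 and 15710 in Control, a ratio of the means of 1.38. MT-ATP8 passed the fold threshold in 4 of 14 alternative settings and was at 0.47 to 0.62 over all of them.

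The genes on both sides of this stretch did not share the difference. MT-CO2, upstream, stood at 14427, 16181 and 15553 FPKM in CELF6-OE, against 15424, 16144 and 17823 FPKM in Control. The groups overlapped (log2 fold change -0.14, SE 0.06, or 0.09 in the fit restricted to genes kept by the filter). MT-CO1, the catalytic subunit of complex IV, was at 8469, 10349 and 9736 FPKM against 9658, 10174 and 11056 FPKM, also with overlap (-0.15, SE 0.06, or 0.09 in the fit restricted to genes kept by the filter). MT-ND3, a complex I subunit downstream, was at 5356, 5195 and 5532 FPKM against 5359.5, 5643 and 5425 FPKM, with overlap (-0.07, SE 0.06).

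Ratios within a library show the same step without any scaling between libraries, but they reuse the same values and are not separate support. The FPKM ratio of MT-CO3 to MT-CO2 was 1.02, 0.926 and 0.887 in CELF6-OE, against 0.648, 0.632 and 0.628 in Control. The FPKM ratio of MT-ATP6 to MT-CO2 was 0.590, 0.619 and 0.550 against 0.385, 0.379 and 0.372. In both ratios the 3 CELF6-OE libraries lay well above the 3 Control libraries. By contrast, the ratio of MT-CO1 to MT-CO2, which are both complex IV subunits upstream of the stretch, was 0.618 ± 0.0273 and 0.626 ± 0.00498 (SD, n = 3), and that of MT-ATP6 to MT-CO3 was 0.623 ± 0.0441 and 0.596 ± 0.00423, with overlap in both. The 3 core subunits of complex IV therefore differed in direction of their fitted values, with MT-CO3 above 0 and MT-CO1 and MT-CO2 below.

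MT-ND5 and MT-CYB lie on both sides of MT-ND6, on the other strand. MT-ND5, a complex I subunit, was at 899, 1366 and 1136 FPKM in CELF6-OE, against 877, 831 and 887 FPKM in Control. Its log2 fold change was 0.35 (SE 0.065, or 0.12 in the fit restricted to genes kept by the filter). CELF6-OE replicate 1 was again the one nearest to Control, and on CPM it fell within the Control range. MT-CYB, the mitochondrially made subunit of complex III, was at 3544, 4133 and 3696 FPKM against 3171, 3302 and 3431 FPKM. It was higher in each CELF6-OE library on FPKM but overlapping on CPM (0.16, SE 0.06, or 0.08 in the restricted fit). Divided by MT-ND4 of the same library, MT-ND5 was 0.138, 0.153 and 0.143 in CELF6-OE, against 0.114, 0.103 and 0.103 in Control, and MT-CYB was 0.543, 0.463 and 0.466 against 0.411, 0.409 and 0.397, on FPKM and without overlap in both. MT-ND4L, on the same mRNA as MT-ND4, also lay higher over MT-ND4 without overlap, at 0.266, 0.276 and 0.264 against 0.256, 0.244 and 0.230. A separation over MT-ND4 was therefore not particular to MT-ND5 and MT-CYB.

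The remaining heavy-strand mRNAs, all of complex I, overlapped between the groups. MT-ND1 was at 4399, 5529 and 4995 FPKM in CELF6-OE, against 4421, 4655 and 5213 FPKM in Control. MT-ND2 was at 4453, 5658 and 5108 FPKM against 4673, 4917 and 5443 FPKM. MT-ND4 was at 6527, 8924 and 7929.8 FPKM against 7721, 8082 and 8635 FPKM, and MT-ND4L, which shares its mRNA, at 1738, 2460.3 and 2093 FPKM against 1978, 1973 and 1985 FPKM. CELF6-OE replicate 1 was the lowest and replicate 2 the highest of the treated libraries in all 4 genes, and the Control libraries of MT-ND4L lay close together. The log2 fold changes were 0.02, -0.02, -0.10 and 0.05 in this order, with SEs of 0.06 to 0.07. In the fit restricted to genes kept by the filter, the SEs were 0.10 to 0.11.

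The rRNAs did not differ between the groups beyond their spread. MT-RNR1 was at 2470.0, 2033 and 2057 FPKM in CELF6-OE, against 2418, 2166 and 2391 FPKM in Control (log2 fold change -0.12, SE 0.06). MT-RNR2 was at 9596, 8576 and 8613 FPKM against 9772, 8566 and 7451 FPKM (0.02, SE 0.06). In the fit restricted to genes kept by the filter, the SE was 0.09 for both. The groups overlapped in both genes. The rRNA share of the mitochondrial counts was 20.3%, 15.9% and 17.2% over CELF6-OE replicates 1 to 3, against 21.0%, 18.3% and 15.7% over Control. A high and a low library thus occurred in each group. The mRNA share moved the other way by construction, since mRNAs and rRNAs make up nearly all mitochondrial counts.

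**Figure D4:**
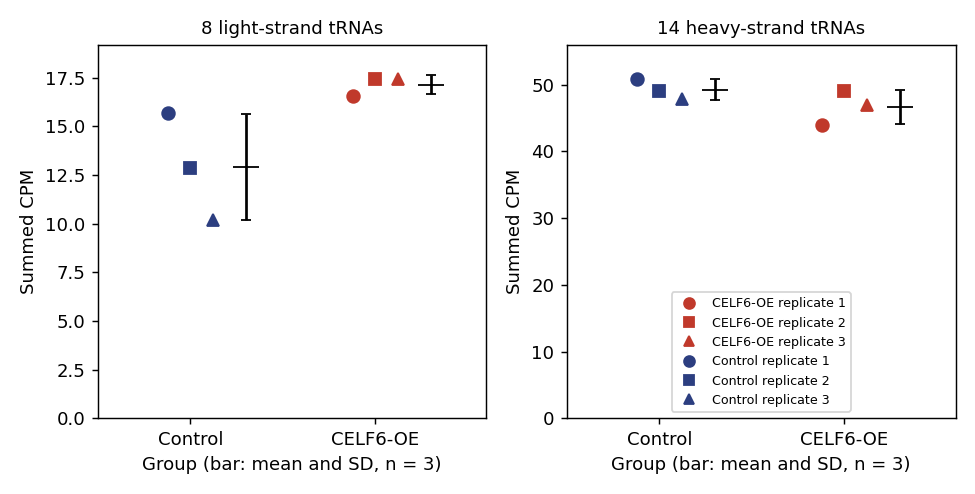
Summed CPM of the 8 light-strand tRNAs (left) and the 14 heavy-strand tRNAs (right) in each library, with the group mean and SD (n = 3) as a bar beside the points. The light-strand sum is higher in all CELF6-OE libraries than in all Control libraries, while the heavy-strand sums overlap.

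The tRNAs decode the mitochondrial mRNAs and were measured with few counts, as all 22 together made up 2111 to 2449 counts per library. No 150-base window fits inside a tRNA gene, so a read of that length also covers flanking sequence. Because the strand setting is not given, counts on light-strand tRNAs may include reads of RNA from the opposite strand. Their fitted log2 fold changes had a median of 0.22, with 18 above 0 and 4 below, and 0 passed the DEG threshold in either direction. The 8 light-strand tRNAs all had values above 0, from 0.10 to 0.56 with a median of 0.45 that was 0.30 without Control replicate 3, when 7 of the 8 were above 0. In all libraries, 4 of them, MT-TQ, MT-TN, MT-TC and MT-TP (for glutamine, asparagine, cysteine and proline), were higher without overlap, beside 11.0% of all genes and 2672 of the 15847 kept by the filter. MT-TQ had 180, 175 and 182 counts in CELF6-OE, against 154, 159 and 164 in Control. Summed, the light-strand tRNAs had 16.6, 17.4 and 17.5 CPM in CELF6-OE, against 15.7, 12.9 and 10.2 CPM in Control, a ratio of the means of 1.33. The Control libraries varied more than the CELF6-OE libraries, and Control replicate 1 lay close to the treated ones.

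Much of this spread lay in MT-TS1, a serine tRNA, which had 170, 213 and 198 counts in CELF6-OE, against 207, 142 and 63 in Control. Its log2 fold change was 0.56 (SE 0.15, or 0.30 in the fit restricted to genes kept by the filter). Yet Control replicate 1, at 79.2 FPKM, lay above CELF6-OE replicate 1 at 67.9 FPKM and close to the other two at 83.3 and 81.3 FPKM. MT-TE, the glutamate tRNA next to MT-ND6 on the same strand, had 27, 41 and 40 counts in CELF6-OE, against 31, 27 and 26 in Control, so CELF6-OE replicate 1 lay within the Control range, as it nearly did for MT-ND6. MT-TA and MT-TY, for alanine and tyrosine, overlapped as well, at mean counts of 55.5 and 13.5.

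The 14 heavy-strand tRNAs had log2 fold changes with a median of 0.16, which was 0.03 over the 11 kept by the filter on low counts and 0.08 without Control replicate 3. Their summed CPM of 43.9, 49.1 and 46.9 in CELF6-OE overlapped with 50.9, 49.0 and 47.9 in Control. MT-TT, a threonine tRNA downstream of MT-CYB, was lower in CELF6-OE without overlap, at 150, 166 and 173 counts against 223, 234 and 231 (log2 fold change -0.43, SE 0.14). MT-TF, the phenylalanine tRNA at the start of the heavy-strand transcript, was lower too, at 394, 386 and 375 counts against 506, 479 and 468 (-0.26, SE 0.11). MT-TL1, a leucine tRNA between MT-RNR2 and MT-ND1, had the most counts, 542, 695 and 596 against 608, 662 and 614, and overlapped. MT-TG and MT-TL2 were higher without overlap at 1 to 6 counts and 0 to 7 counts per library, where a difference cannot be read at this depth. The other 9 heavy-strand tRNAs overlapped, with log2 fold changes from -0.06 to 0.46.

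Pieces of the mitochondrial genome that were copied into nuclear chromosomes can take reads from these genes. In the reference, 150-base windows that recur exactly in a nuclear chromosome made up 15.7% of the windows of MT-ND2, 14.5% of MT-CO1, 10.4% of MT-RNR1 and 1.12% of MT-ND1, and 0% in the other mRNAs and MT-RNR2. The authors' alignment allowed mismatches, so copies that are not exact can take reads too, and 0% does not mean that a gene is free of them. Of 24 nuclear copies in the table, 4 were kept by the filter on low counts. The nuclear copy MTATP6P1, on chromosome 1, had 44954, 53198 and 42644 counts in CELF6-OE, against 31728, 35145 and 38673 in Control (log2 fold change 0.48, SE 0.07). Its counts were 0.210 ± 0.00317 of those of MT-ATP6 in CELF6-OE and 0.213 ± 0.00530 in Control (SD, n = 3), with overlap, so the copy and the mitochondrial gene moved in parallel. How reads were divided between them was not tested, and both values are uncertain for that reason. The next copies, MTND2P28 and MTND1P23, had mean counts of 2220 and 158 and log2 fold changes of -0.03 (SE 0.08) and 0.13 (SE 0.15), and were not called. The 1 copy past the DEG threshold was MTRNR2L1, which resembles MT-RNR2 and is named here with its value already known. It had 15, 19 and 13 counts in CELF6-OE, against 10, 9 and 3 in Control (log2 fold change 1.15, SE 0.44), and it did not pass in the fit of genes kept by the filter.

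**Figure D5:**
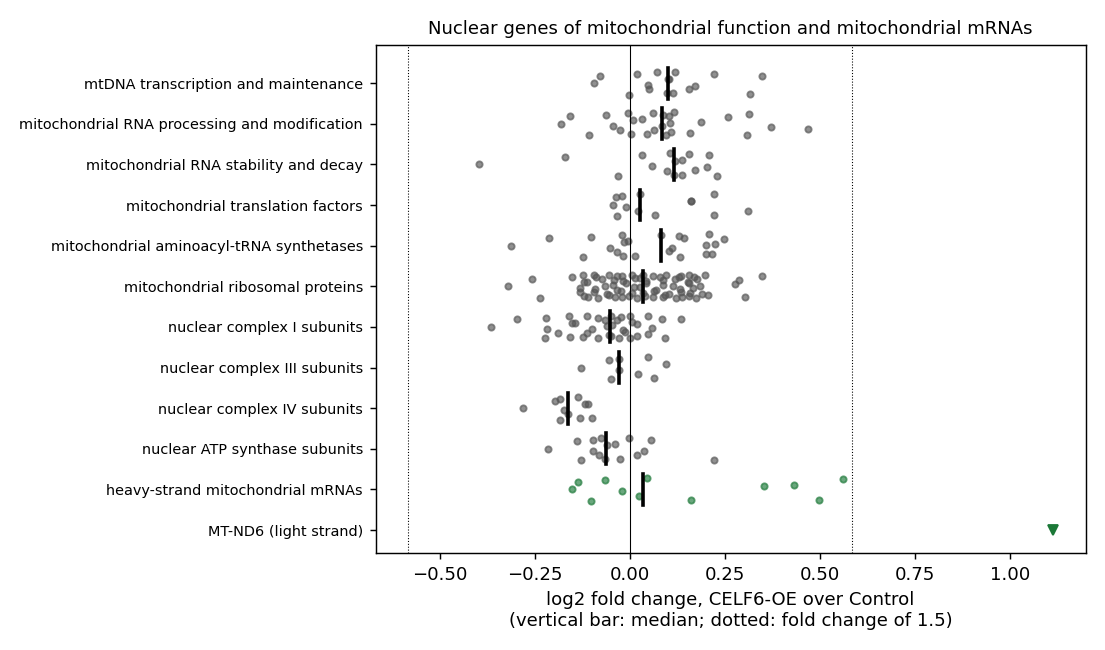
Fitted log2 fold change of CELF6-OE over Control for nuclear genes of mitochondrial function kept by the filter on low counts, 1 point per gene and 1 row per list, with the median of the row as a vertical bar; the 2 lowest rows hold the mitochondrial mRNAs. No nuclear gene lies beyond the dotted lines at a fold change of 1.5, all complex IV points lie below 0, and MT-ND6 lies far to the right.

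Mitochondrial RNA is made, cut, modified, translated and degraded by proteins encoded in the nucleus, and the chosen lists of such genes were measured in the same libraries. Of 175 nuclear genes of mitochondrial gene expression, all kept by the filter, 0 passed the DEG threshold in either direction by edgeR and 0 by DESeq2. In the edgeR fit 1.08% of all genes passed it as higher and 4.06% as lower. Of the 15847 genes kept by the filter, 288 passed it as higher and 1087 as lower in that fit. At an unadjusted p under 0.05 and any fold, edgeR placed 40 of the 175 higher and 7 lower, beside 15.8% and 19.7% of the genes kept by the filter. DESeq2 placed 35 higher and 6 lower, beside 12.5% and 15.4% of those genes. Their median log2 fold change was 0.06, with 115 values above 0 and 60 below. Without a fold threshold, 15 were higher and 3 lower at an adjusted p under 0.05 among the genes kept by the filter, where the shares over those genes were 6.47% and 11.5%.

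PNPT1, the polynucleotide phosphorylase that degrades mitochondrial RNA together with the helicase SUPV3L1, was lower in CELF6-OE. It had 6977, 6985 and 8270 counts in CELF6-OE, against 11255, 10716 and 8805 in Control, so CELF6-OE replicate 3 and Control replicate 3 lay close to each other. Its log2 fold change was -0.40 (SE 0.07, adjusted p = 1.06e-06 by edgeR's quasi-likelihood test over all genes and 0.0226 among the genes kept by the filter), short of a fold change of 1.5. Over the alternatives the adjusted p ranged from 1.06e-06 to 0.0600, the highest value being that without CELF6-OE replicate 2. SUPV3L1 itself had a log2 fold change of 0.12 (SE 0.09, adjusted p = 0.522 by the same edgeR test). Besides PNPT1, the genes lower at an adjusted p under 0.05 among the kept genes were the ribosomal proteins MRPL17 (-0.32) and MRPL40 (-0.26), named here with their values already known. Their adjusted p was at most 0.0652 and 0.222 over the alternatives, in both cases without CELF6-OE replicate 2. Among the 15 higher genes were MTO1 (0.47) and NGRN (0.37) of RNA modification and processing, the ribosomal protein MRPS10 (0.35) and the transcription factor TFB2M (0.32), named in the same way, for which the highest adjusted p over the alternatives was 0.0950, 0.141, 0.0280 and 0.145.

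The genes fixed by name that make and hold mitochondrial RNA did not pass the DEG threshold. POLRMT, the mitochondrial RNA polymerase, had a log2 fold change of 0.05 (SE 0.08, adjusted p = 0.726 by edgeR's quasi-likelihood test). TFAM, which packages the mitochondrial genome and starts transcription, was at 2010, 2281 and 1942 counts in CELF6-OE, against 2182, 1847 and 1568 in Control, with overlap (0.22, SE 0.08, adjusted p = 0.0572 by the same edgeR test). Its adjusted p ranged from 0.000139 to 0.529 over the alternatives. LRPPRC and SLIRP, which together stabilize mitochondrial mRNAs, had log2 fold changes of 0.14 (SE 0.07) and 0.06 (SE 0.07), with adjusted p of 0.267 and 0.652 by edgeR.

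The respiratory chain and ATP synthase are built from mitochondrial and nuclear subunits together. Of 74 nuclear subunits on the lists, 73 were kept by the filter and 0 passed the DEG threshold. In the same fit 288 of the 15847 kept genes passed it as higher and 1087 as lower. At an unadjusted p under 0.05, 1 of the subunits was higher and 15 were lower by edgeR, beside 15.8% higher and 19.7% lower of all genes kept by the filter. The share of lower genes was near that background, while the share of higher genes was below it. The median log2 fold change was -0.06, with 18 values above 0 and 56 below. The 11 nuclear subunits of complex IV all had values below 0, with a median of -0.16, beside -0.06 for complex I, -0.03 for complex III and -0.06 for ATP synthase. At an adjusted p under 0.05 and any fold, 6.47% of all kept genes were higher and 11.5% lower. Of the subunits, NDUFS4 (-0.37) and NDUFA9 (-0.30) of complex I and COX5B (-0.28) of complex IV were lower at this limit, and ATP5F1 (0.22) of ATP synthase was higher. These 4 were named with their values already known, and the highest adjusted p over the alternatives was 0.0523, 0.118, 0.0991 and 0.172 in the same order.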

How the data were processed

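FASTX-Toolkit was used by the authors for trimming and TopHat2 for alignment to GRCh38, and reads with 1 location were counted per gene. The counting tool, strand setting and annotation are not given in the sources used here. Labels and methods differ on RNA input and read length. The authors deposited read counts per gene without normalization, and FPKM values. For all 37 genes FPKM fitted the count divided by the gene length of GENCODE release 44 and 1 constant per library. Counts were scaled with TMM and tested without a block with edgeR 4.0.16 (R 4.3.3), using the quasi-likelihood test on all 29889 genes with Benjamini-Hochberg adjustment and a prior count of 0.125. In that fit the prior degrees of freedom were infinite, so a gene's own spread did not enter; among the 15847 genes kept by filterByExpr they were 7.15. Ratios and shares use single libraries. The alternatives were other scalings, DESeq2 1.42.0, filterByExpr, other thresholds, a replicate block and leaving out each library. On simulated counts of 28304 genes, 188 of 200 changed genes were recovered beside 77 false calls. These counts were drawn with no spread of each gene's own, so they cannot show false calls that arise from such spread. Members, gene lists and tests were chosen with earlier results of these data known. All mitochondrial mRNAs and rRNAs are named, tRNAs mainly from a mean of 10 counts, the 3 nuclear copies with the most counts, and of the nuclear lists the called genes (here 1 nuclear copy) and 6 fixed genes. Further names are marked. P-values rest on 3 biological replicates per group and, in the fit of all genes, on a spread shared between genes.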

Additional observations from a re-analysis of the deposited data

How the results depend on the processing

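MT-ND6 was past the DEG threshold under all 14 alternative fits, with log2 fold changes from 0.88 (without CELF6-OE replicate 2) to 1.44, and was 0.95 as a share of the heavy-strand mRNAs. The number of mitochondrial genes called higher was 1 in most settings, 3 with library size only, 2 with upper-quartile scaling and 1 to 3 when a library was left out; the added genes were MT-ATP8, MT-TS1 and MT-TA, and 0 were called lower throughout. Same-numbered libraries did not deviate together (correlations -0.0843, -0.0592 and -0.111), so they share only a number; a replicate block gave 2 mitochondrial genes called higher, and no library correlated best with its own number. The heavy-strand mRNA median was 0.03. As a share of those same mRNAs it was -0.02, a value held near 0 by construction. It was -0.05 to 0.14 when a library was left out, below 0 without CELF6-OE replicate 2 or Control replicate 1. The tRNA median ranged from 0.14 to 0.48, the latter without Control replicate 1. That of the light-strand tRNAs ranged from 0.30 to 0.57, with 7 of 8 above 0 without CELF6-OE replicate 1, Control replicate 2 or Control replicate 3. That of the heavy-strand tRNAs was 0.08 to 0.18 when a library was left out, 0.03 with the filter on low counts and 0.20 with library size only. The rRNA median ranged from -0.12 to -0.01. The mitochondrial share of counts differed by 0.579 percentage points, by 1.81 on summed FPKM, where the groups no longer overlapped, and by 0.261 (without CELF6-OE replicate 2) to 0.851 (without CELF6-OE replicate 1). The number of overlapping neighbours in the level order was 3 to 5 with a library left out, the lowest without Control replicate 3. Over all genes, DESeq2 called 1018 DEGs, 169 of them higher, a fold change of 2 left 778, of which 119 were higher and 659 lower, and leaving out a library gave 1130 to 1600, with 209 to 448 higher and 921 to 1256 lower. Among the nuclear genes of mitochondrial gene expression, 0 to 1 were called higher, the 1 without Control replicate 1. No called result changed sign, and the cause of each shift was not tested. With 3 libraries per group, the counts of the tRNAs and the spread of MT-ND6 in CELF6-OE set the precision of the values.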
